A study of Mus musculus with 18 samples.

Results

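Potassium channel genes and the genes of the hyperpolarization-activated (HCN) channels were followed in whole lumbar dorsal root ganglia (DRG) of mice with and without a myeloma in the femur. All protein-coding genes in the deposited table of normalized counts whose symbol starts with Kcn, or is Hcn followed by a digit, were taken. This gave 87 genes of the 17787 in that table. The rule used the symbol and a listing in that table, and no difference between the groups. Level entered through the listing, since the channel genes left out had few reads. A further 11 protein-coding genes with such symbols (Kcne1, Kcne2, Kcnh4, Kcnj1, Kcnj5, Kcnk7, Kcnk15, Kcnmb3, Kcnq1, Kcnrg and Kcnv2) are not listed there, and none averaged more than 6.11 reads per library. After a filter on low counts, 84 of the 87 genes were tested; Kcna7, Kcna10 and Kcne3 were too low.

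The 18 libraries came from male C57BL/KaLwRijHsd mice labelled 5-7 weeks old, and every mouse had an injection into the femur. The 9 mice called MM were given 5TGM1-GFP, mouse myeloma cells that carry green fluorescent protein. The 9 called SHAM were given vehicle alone. Ganglia L2, L3 and L4 of the injected side were taken whole on post-surgical day 24, so each library mixes neurons with glia, vessels and blood cells of several levels. The series names 9 mice per group, and each library was taken as 1 mouse. The MM group rests on 1 tumour line in 1 host strain.

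Potassium channels let potassium leave the cell and so pull the membrane towards rest. The voltage-gated Kv families open on depolarization and shape the threshold, width and repetition of the action potential. Inward rectifiers and two-pore channels set the resting potential, and calcium- and sodium-activated channels open when those ions build up during firing. Accessory subunits change the gating and transport of the pore-forming subunits. HCN channels, by contrast, pass an inward current on hyperpolarization and set the pace of repeated firing. In sensory neurons of the DRG these families are known for holding back firing, or in the case of HCN channels for promoting it, and many have been studied in pain.

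Reads assigned to genes ranged from 19014161 to 21538262 per library. All 18 pan-neuron markers of the labelled tissue were detected. Their summed level lay between 16762 and 22013 CPM in SHAM, where CPM are counts brought to a common library size by TMM. In MM the same sum ranged from 10730 to 22892 CPM. Ighg2b, an immunoglobulin heavy chain gene, stood between 0.100 and 16.4 CPM in SHAM. In MM it was highest in MM9 (4374 CPM), MM8 (2334 CPM) and MM5 (2197 CPM), and between 11.7 and 390 CPM in the other 6 libraries. Values from a fit that leaves out MM5, MM8 and MM9 are therefore given beside most of the genes that follow. SHAM8 stood apart by 10 skeletal muscle markers with a sum of 21982 CPM, against 4412 CPM in SHAM7 and at most 2205 CPM elsewhere. Changes of a gene in such bulk samples cannot tell fewer cells of a type from less RNA per cell.

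Levels between genes were compared per length, as transcript abundance corrected for length (TPM) and summed over a gene's transcripts. In SHAM, 9 channel genes stood above 100 TPM, 36 between 10 and 100 TPM, 34 between 1 and 10 TPM, and 8 under 1 TPM. Together the 87 genes held 0.279% of all TPM. The most abundant were mainly subunits of the A-type and delayed rectifier currents. Accessory subunits led, with Kcnab2 at 312 ± 38.6 TPM (SD, n = 9), Kcnip3 at 229 ± 27.0 TPM and Kcnip4 at 190 ± 8.96 TPM. Kcnab2 encodes a beta subunit of Kv1 channels, and Kcnip3 and Kcnip4 encode calcium-binding partners of Kv4 channels. The deposited value of Kcnab2 was 4.77 times the scaled sum used here, so the sum does not hold all the reads that the authors assigned to the gene. The same held for Kcnip1 (7.59 times), Kcnip2 (4.68 times) and Kcnc4 (1.26 times), and the levels of these 4 genes are partial.

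**Figure D1:**
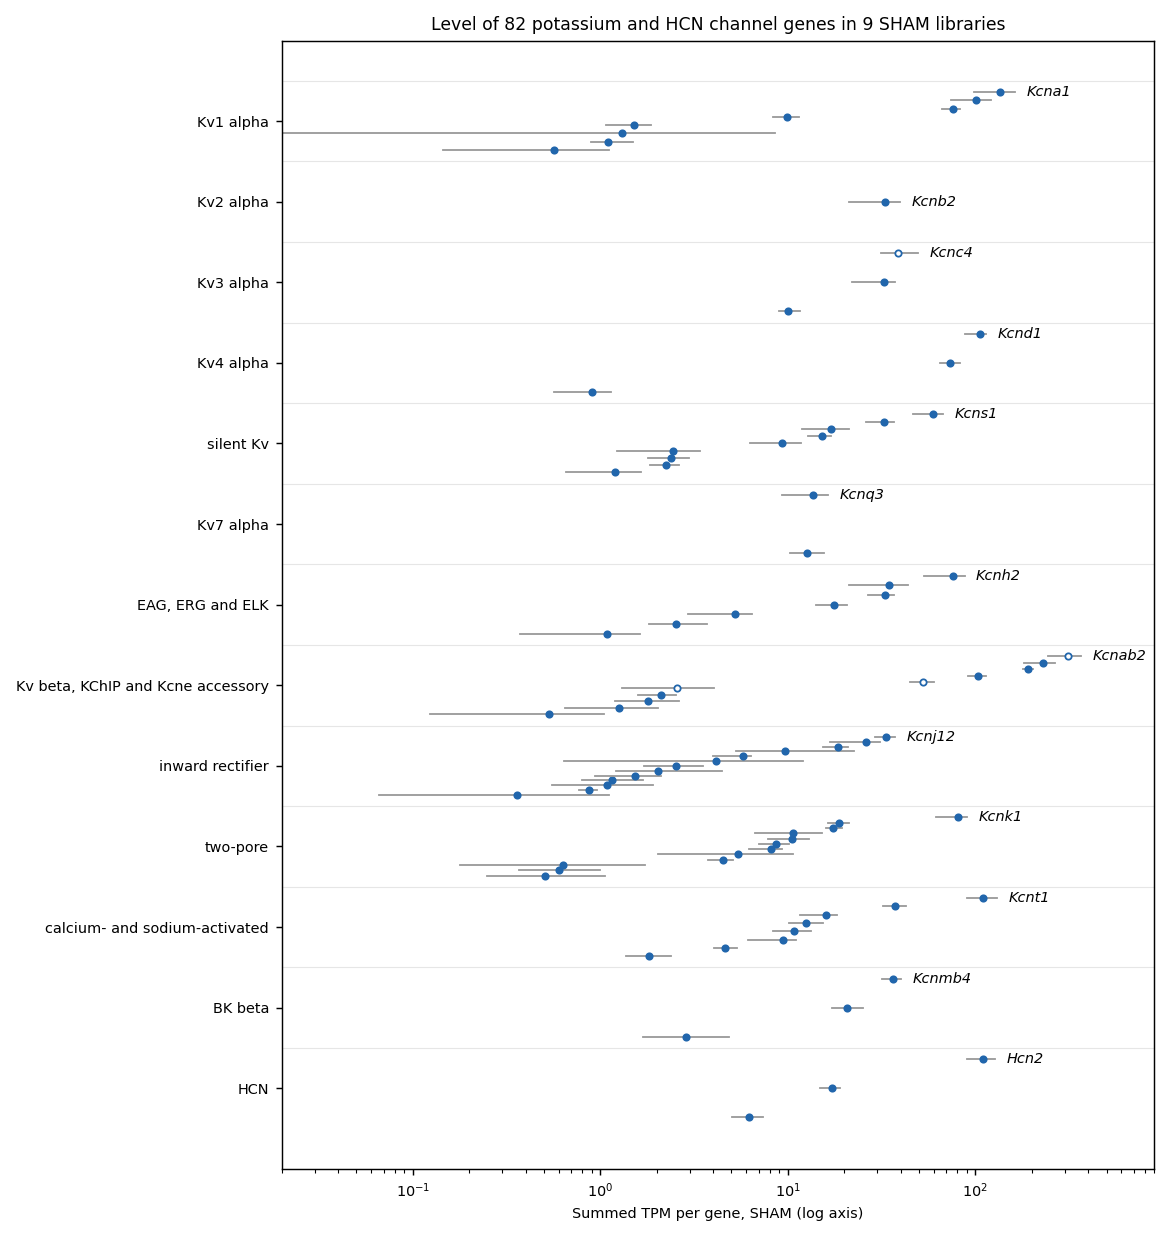
Summed TPM (horizontal, log axis) of the channel genes in 9 SHAM libraries, grouped by family (a few genes are not drawn): points are means, lines run from the lowest to the highest library (cut at the left edge where the lowest is 0), and open points mark the 4 genes with partial levels. The top gene drawn in each family is named, from Kcnab2 at 312 TPM to Kcnq3 at 13.6 TPM.

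Among pore-forming subunits, Kcna1 had the highest level, 135 ± 22.1 TPM. It encodes a Kv1 subunit that sits beside the nodes of Ranvier of myelinated axons. Its relatives Kcna2 (100.2 ± 16.2 TPM) and Kcna6 (75.7 ± 5.34 TPM) were also abundant, while Kcna5 stood at 1.51 ± 0.22 TPM and Kcna3 between 0.896 and 1.5 TPM. Kcna4, which gives an A-type current in small neurons, stood at 9.83 ± 0.92 TPM. The 3 abundant Kv1 genes thus differed from the low ones by far more than the spread over libraries.

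Kcnt1, the sodium-activated channel also called Slack, had 110 ± 12.7 TPM, and Hcn2 had 109 ± 12.9 TPM. Kcnd1 (105 ± 8.36 TPM) and Kcnd3 (73.6 ± 5.82 TPM) carried the Kv4 family, and Kcnd2 stood at 0.906 TPM. Hcn3 had 17.3 ± 1.64 TPM (14.7 to 19.1 TPM) and Hcn4 had 6.21 ± 0.78 TPM (5.02 to 7.38 TPM). The ranges of Hcn2, Hcn3 and Hcn4 did not overlap. Kcnk1 led the two-pore channels with 80.9 ± 8.63 TPM. The temperature- and stretch-sensitive Kcnk2 (10.6 ± 2.51 TPM) and Kcnk4 (17.4 ± 1.05 TPM), the acid-sensitive Kcnk3 (10.5 ± 1.42 TPM) and the migraine-linked Kcnk18 (8.67 ± 1.07 TPM) were lower.

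Other abundant genes were Kcnab1 (104 ± 7.49 TPM), a Kv1 beta subunit, and Kcnh2 (75.7 ± 11.6 TPM), the ERG channel of cardiac repolarization. The M-current genes Kcnq3 and Kcnq5 of the Kv7 family had 13.6 ± 2.31 TPM and 12.6 ± 1.66 TPM. Kcnj10, an inward rectifier of satellite glia, stood at 26.1 ± 5.30 TPM. The coefficient of variation between SHAM libraries had a median of 10.9% over the 53 channel genes at 10 CPM or more, against 7.71% over all 10011 such genes.

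Most channel genes had 1 main transcript. Over the 45 genes with at least 10 TPM in SHAM, the leading transcript held a median of 80.8% of the gene's TPM. It held at least 90% in 18 genes and under 50% in 8. Some of the 18, such as Kcnc4, Kcnj10 and Kcns1, had only 1 linked transcript, so their share of 100% was fixed in advance. The shares of Kcnab2, Kcnip2 and Kcnc4 rest on the partial sums described above. The leading transcript was the same in SHAM and MM for 44 of 45 genes, and the exception was Kcnq5, where Kcnq5-203 held 52.4% in SHAM and 48.5% in MM. In 3 genes the leading transcript is annotated as not coding for protein. These were Kcnt1, with a retained-intron transcript at 35.1% of its TPM in SHAM, and Kcna6 (68.3%) and Kcnk2 (43.9%), with transcripts annotated as nonsense-mediated decay. These genes were picked after their values were seen, and such shares are Salmon's estimates.

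Between the groups, few channel genes passed the test. In edgeR's quasi-likelihood test with adjustment over all 15774 tested genes, 2 of 84 rose in MM (2.38%, background 2.75%): Kcnn4 and Kcnj15. Another 2 fell (2.38%, background 0.241%): Kcnh6 and Kcnt1. Of the other 80, 69 had a log2 fold change below 0 and 11 above 0. At an unadjusted p under 0.05, 17 were lower (20.2%, background 8.6%) and 4 higher (4.76%, background 13.9%). The median log2 fold change of the 84 was -0.17, and that of all tested genes -0.004; 84.5% of the channel genes and 51.1% of all genes lay below 0. No channel gene had groups that did not overlap, a state reached by 0.12% of all genes upward and 0.0254% downward. For 62 of 84 (73.8%, background 74.6%), the 95% interval of the fold change lay inside 1.5-fold either way, so larger changes were outside those intervals.

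**Figure D2:**
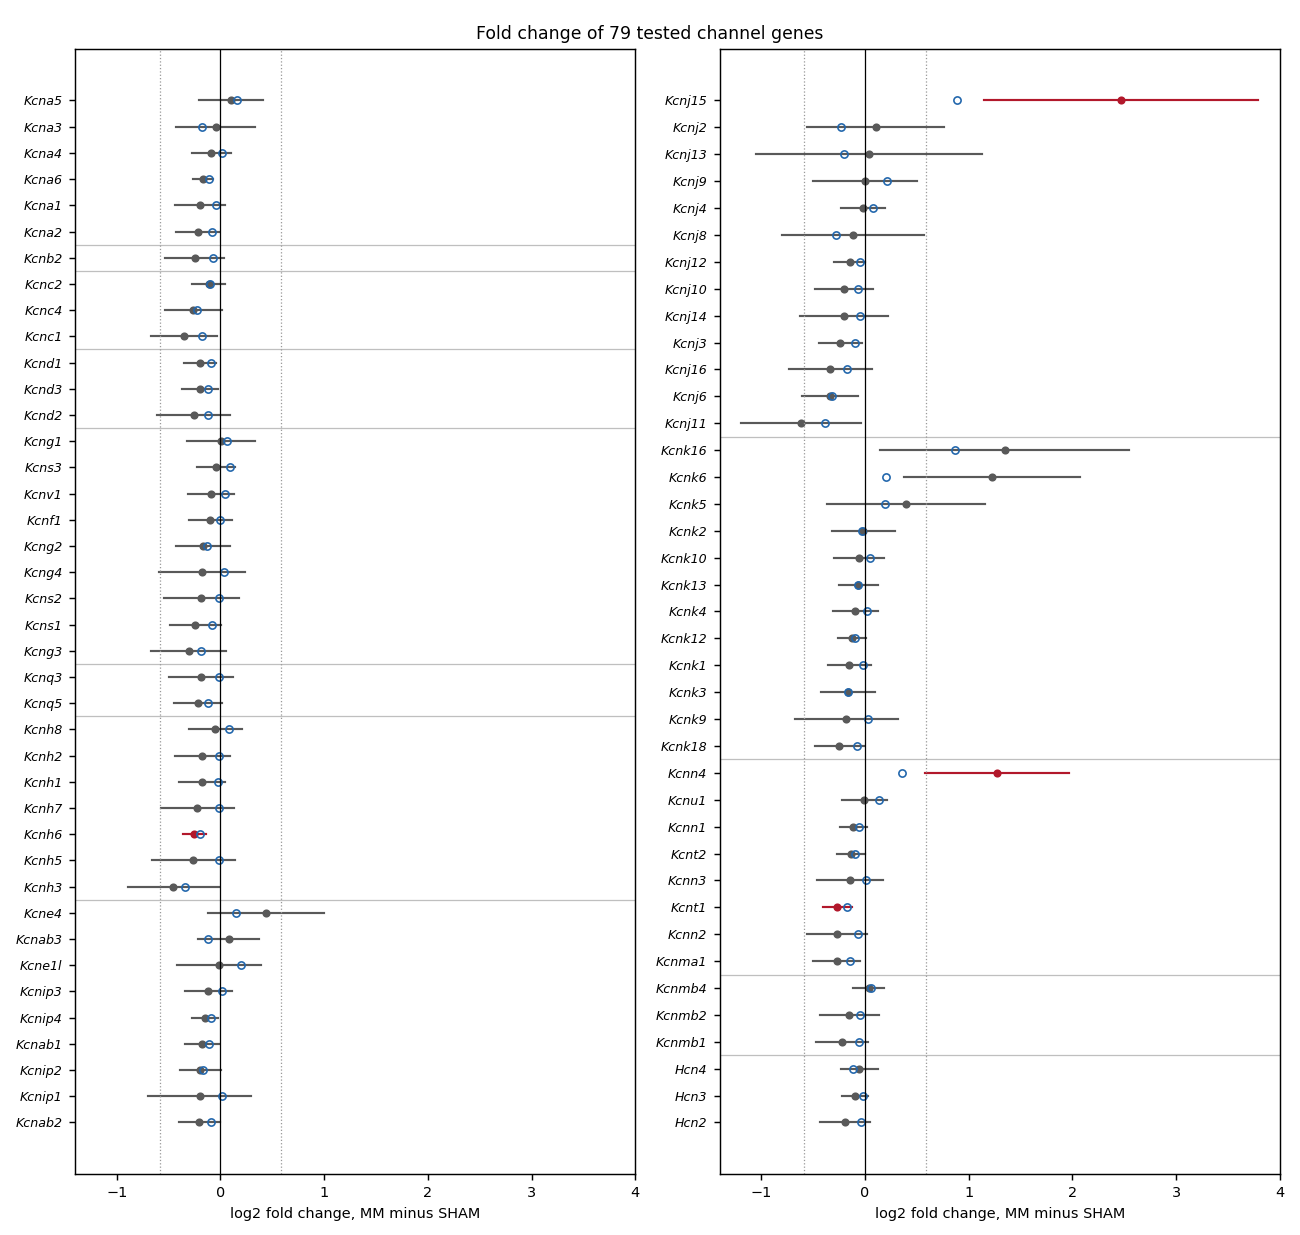
Log2 fold change (MM minus SHAM) of the tested channel genes (a few are not drawn), ordered by family (grey lines) and then by size: filled points with 95% intervals are all 18 libraries, red where the adjusted p is under 0.05, and open blue points leave out MM5, MM8 and MM9. Dotted lines mark 1.5-fold; most filled points lie just left of 0, and the open points lie closer to 0 for Kcnn4, Kcnj15 and Kcnk6.

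Kcnn4 encodes the intermediate-conductance calcium-activated potassium channel, known in red blood cells, lymphocytes and macrophages. In SHAM its level ran from 6.29 to 11.3 CPM with a median of 10.2 CPM. In MM it ran from 9.53 to 60.2 CPM with a median of 13.3 CPM. The 3 highest were MM9 (60.2 CPM), MM5 (39.4 CPM) and MM8 (34.0 CPM), and the other 6 lay between 9.53 and 14.4 CPM. In all, 7 of 9 MM libraries stood above the highest SHAM library, and the groups overlapped through the remaining ones. The log2 fold change was 1.27 (SE 0.33, edgeR adjusted p = 0.0466). Without MM5, MM8 and MM9 it was 0.36 and the call was lost, and leaving out 1 library ended the call in 12 of 18 fits. The log2 fold change ran from 0.95 to 1.38 over these 18 fits. The number of all genes that rose also moved in them, from 75 to 891.

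Kcnj15 encodes an inward rectifier that can pair with Kcnj16. It was near the limit of detection in SHAM, from 0.212 to 1.68 CPM with a median of 0.533 CPM, where 3 counts make 0.14 to 0.16 CPM. In MM it ran from 0.246 to 11.5 CPM with a median of 1.61 CPM. MM9 (11.5 CPM), MM5 (9.64 CPM) and MM8 (6.46 CPM) were again the highest, MM1 followed at 3.05 CPM, and the other 5 lay inside the SHAM range. The log2 fold change was 2.47 (SE 0.63, edgeR adjusted p = 0.0427). It was 0.89 without those 3 libraries, where the call was lost, and 1.41 in limma on log2 of the deposited value plus 1, where it did not pass either. Leaving out 1 library ended the call in 11 of 18 fits, and the log2 fold change ran from 2.08 to 2.74 over the 18.

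Kcnk6, a two-pore channel, followed the same libraries without passing the test. It ran from 0.636 to 2.44 CPM in SHAM (median 1.0 CPM) and from 0.858 to 6.51 CPM in MM (median 1.66 CPM). MM9 (6.51 CPM), MM5 (5.73 CPM) and MM8 (4.01 CPM) exceeded every SHAM library, and the other 6 MM libraries did not. The log2 fold change was 1.22 (SE 0.40, edgeR adjusted p = 0.0948), and 0.21 without the 3 libraries. Kcnk16, another two-pore channel, was high in MM8 (5.53 CPM) and MM4 (3.61 CPM) alone, with a log2 fold change of 1.35 (SE 0.57, edgeR adjusted p = 0.180). This value depended on the method, with 0.61 in DESeq2, 0.59 in limma on the deposited table and 0.87 in edgeR without MM5, MM8 and MM9. The highest SHAM library for Kcnj15 and Kcnk6 was SHAM6, with 1.68 and 2.44 CPM. Kcnn4 did not share this, with 8.38 CPM in SHAM6, below its SHAM median of 10.2 CPM.

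The libraries in which Kcnn4, Kcnj15 and Kcnk6 were high also had the highest sums of B, plasma and myeloma cell markers and of macrophage markers. Of 16 markers of B cells, plasma cells and myeloma cells, 14 were tested, 9 rose and 2 fell. Their summed level ran from 94.5 to 156 CPM in SHAM and from 140 to 918 CPM in 6 MM libraries, and was 4456 CPM in MM5, 5057 CPM in MM8 and 8525 CPM in MM9. Ighg2b, by which MM5, MM8 and MM9 were singled out, belongs to this list, so the match of this sum with them was built in. Of 15 macrophage markers, all tested, 7 rose (Cd68, Aif1, C1qa, C1qb, C1qc, Ctss and Ms4a7) and none fell. Their sum ran from 91.4 to 283 CPM in SHAM, highest in SHAM6, and from 146 to 210 CPM in 6 MM libraries. It reached 839 CPM in MM5, 405 CPM in MM8 and 610 CPM in MM9. No marker of either list was at 0 in all libraries, and neither list holds a channel gene. Other cell types differed too. The sum of 10 T cell markers was also highest in MM5 (16.0 CPM), MM9 (10.9 CPM) and MM8 (6.22 CPM). It reached at most 5.99 CPM in SHAM and 5.86 CPM in the other 6 MM libraries. Of these 10 markers 3 were tested, and none passed. All 6 tested red blood cell markers fell in MM (median log2 fold change -2.78), with sums of 237 to 2998 CPM in SHAM and 51.5 to 257 CPM in MM. MM5 held the highest sums of Schwann cell (19336 CPM), fibroblast (4120 CPM) and endothelial markers (424 CPM) of all 18 libraries, and none of these lists had a marker that passed the test. The part of any of these cells in the Kcnn4, Kcnj15 and Kcnk6 values was not tested.

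**Figure D3:**
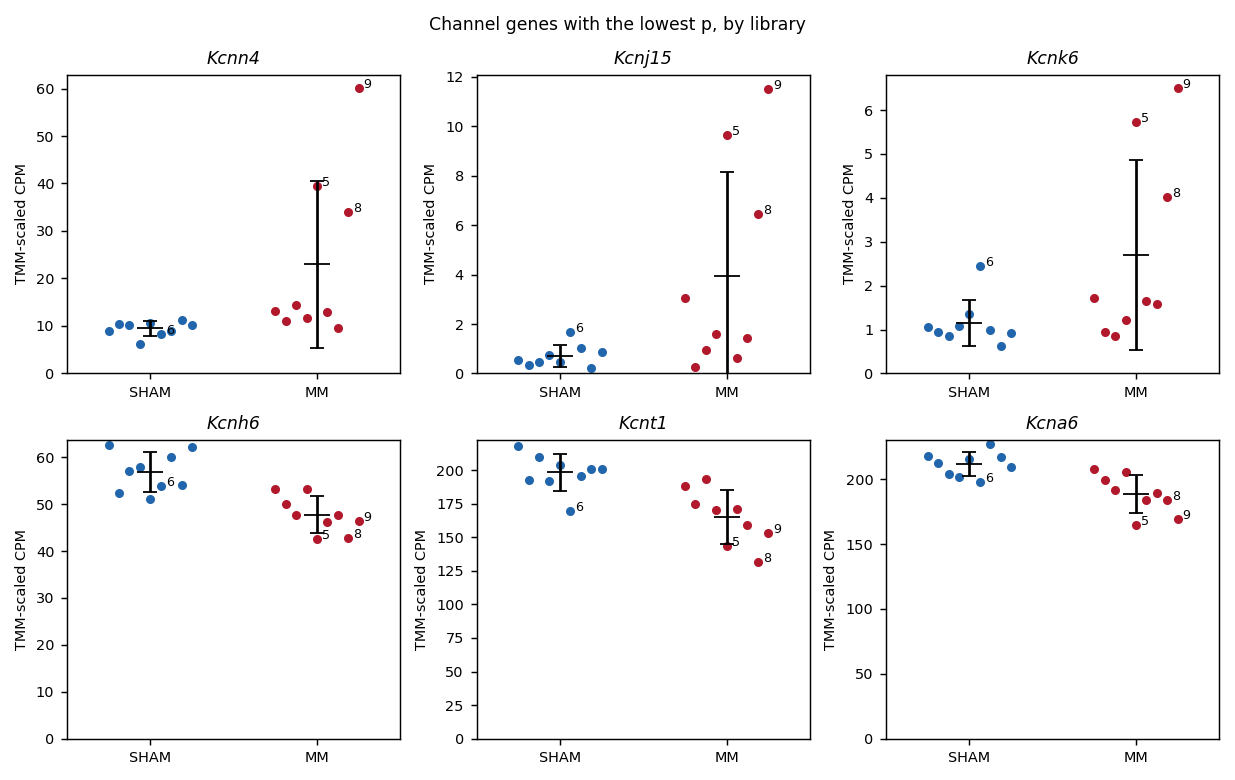
TMM-scaled CPM (vertical, from 0) of 6 channel genes in 9 SHAM and 9 MM libraries: each point is a library, black bars are the mean ± SD (cut at 0 for Kcnj15), and digits mark SHAM6 and MM5, MM8 and MM9. In the upper row MM5, MM8 and MM9 stand above all SHAM libraries; in the lower row the groups are shifted by less and overlap.

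The deposited estimates divided the rise of Kcnn4 unevenly between its transcripts, a pattern noticed after the values were seen and given without a test. Kcnn4-202 had a mean of 5.39 TPM in SHAM (3.47 to 7.63 TPM) and 16.1 TPM in MM, with 43.3 TPM in MM9, 28.8 TPM in MM5 and 24.0 TPM in MM8. Kcnn4-201 stood at 3.81 TPM in SHAM and 3.94 TPM in MM, and its MM libraries ran from 2.22 to 5.61 TPM. The retained-intron transcripts were also higher in MM, Kcnn4-204 with 0.109 TPM in SHAM and 0.838 TPM in MM, and Kcnn4-205 with 0.145 and 0.507 TPM. Kcnn4-202 and Kcnn4-201 have 9 exons each, of which 7 are identical, and the coding parts are the same. The first exon of Kcnn4-202 starts 36 bases upstream of that of Kcnn4-201, and the last exon of Kcnn4-201 starts 85 bases upstream of that of Kcnn4-202. They differ therefore at the ends alone, where reads separate them.

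**Figure D4:**
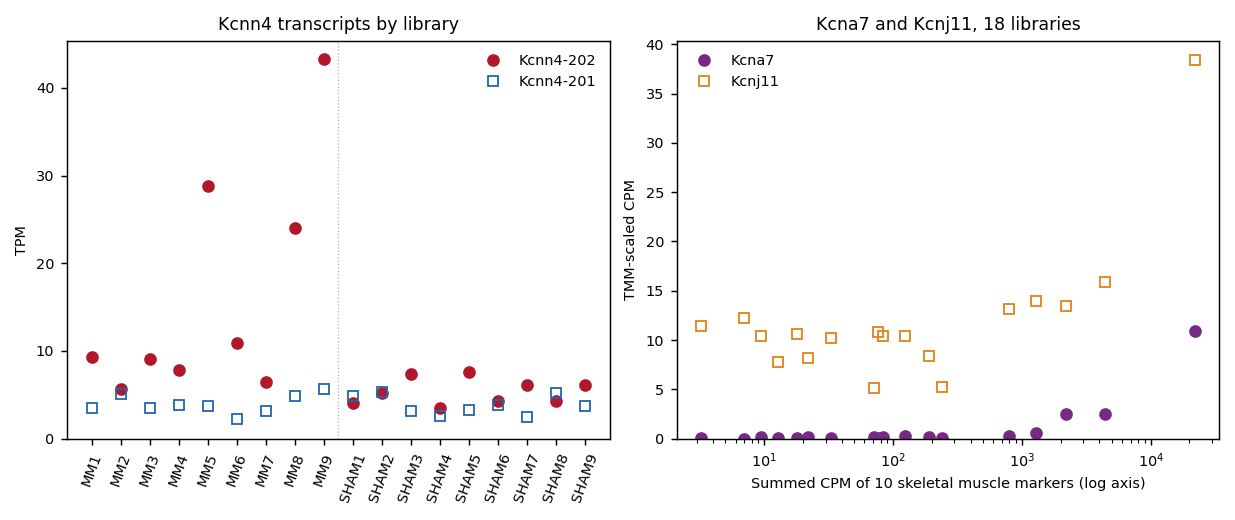
Left, TPM of the Kcnn4 transcripts Kcnn4-202 (filled) and Kcnn4-201 (open) in each of 18 libraries, with Kcnn4-202 high in MM5, MM8 and MM9. Right, CPM of Kcna7 and Kcnj11 against the summed CPM of 10 skeletal muscle markers (log axis) in the same libraries, with SHAM8 at the far right at 10.9 CPM for Kcna7 and 38.4 CPM for Kcnj11.

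Kcnh6 encodes an ERG channel of neurons. It ran from 51.2 to 62.7 CPM in SHAM (median 57.0 CPM) and from 42.5 to 53.3 CPM in MM (median 47.7 CPM). All 9 MM libraries lay below the SHAM median and 7 below the lowest SHAM library, so the ranges overlapped slightly. The log2 fold change was -0.25 (SE 0.05, edgeR adjusted p = 0.0242). Without MM5, MM8 and MM9 it was -0.19 and no longer passed. With libraries scaled to equal pan-neuron markers it was -0.09, and the call was lost there too (edgeR adjusted p = 0.507, range over all alternatives, DESeq2 and limma included, 0.000661 to 0.507). Leaving out 1 library ended the call in 4 of 18 fits, and the log2 fold change ran from -0.27 to -0.23 over the 18.

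Kcnt1 ran from 169 to 218 CPM in SHAM (median 200.9 CPM) and from 132 to 194 CPM in MM (median 170 CPM). MM8 (132 CPM) and MM5 (144 CPM) were the lowest, and all 9 MM libraries lay below the SHAM median, though the groups overlapped. In SHAM, SHAM6 was the lowest at 169 CPM. The log2 fold change was -0.26 (SE 0.07, edgeR adjusted p = 0.0427), which no longer passed in 11 of 18 fits that left out 1 library. Over these 18 fits it ran from -0.29 to -0.23. It was -0.17 without MM5, MM8 and MM9, and -0.11 with scaling to pan-neuron markers. Neither setting kept the call.

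Promoters were compared because Kcnn4 and Kcnj15 shared their high libraries while Kcnh6 went the other way. RefSeq promoter windows (GRCm38.p6, 250 bases before the start of transcription) were found for 63 of the 87 genes. Kcnt1 had no entry in the table used here. The 3 windows are all on the plus strand and lie at chr7:24370013-24370262 (Kcnn4), chr16:95257308-95257557 (Kcnj15) and chr11:106007898-106008147 (Kcnh6); capitals mark the GC box GGGCGG on either strand.
Kcnn4: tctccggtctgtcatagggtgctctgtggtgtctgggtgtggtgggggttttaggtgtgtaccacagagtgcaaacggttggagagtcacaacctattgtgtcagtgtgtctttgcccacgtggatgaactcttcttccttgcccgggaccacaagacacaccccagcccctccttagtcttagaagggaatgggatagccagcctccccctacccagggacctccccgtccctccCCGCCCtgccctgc
Kcnj15: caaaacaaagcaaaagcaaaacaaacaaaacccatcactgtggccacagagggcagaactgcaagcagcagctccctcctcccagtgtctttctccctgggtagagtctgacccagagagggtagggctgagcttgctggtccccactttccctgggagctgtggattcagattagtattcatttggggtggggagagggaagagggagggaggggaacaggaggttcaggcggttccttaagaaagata
Kcnh6: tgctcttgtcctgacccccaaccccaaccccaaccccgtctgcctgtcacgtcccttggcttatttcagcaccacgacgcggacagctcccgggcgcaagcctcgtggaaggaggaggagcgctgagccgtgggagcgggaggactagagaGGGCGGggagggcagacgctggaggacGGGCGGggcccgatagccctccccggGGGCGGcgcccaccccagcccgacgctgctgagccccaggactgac

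These windows differed in base composition. That of Kcnh6 was 70.8% G and C and held 3 GC boxes, that of Kcnn4 was 58.8% G and C with 1 GC box close to the start, and that of Kcnj15 was 53.2% with none. The Kcnn4 window ends at the start of Kcnn4-202, the transcript whose estimate was higher in MM. None of the 3 held a TATA box (TATAAA) on either strand. A CCAAT box and an interferon-response-like motif (GAAA, any 2 bases, then GAAA) had no match either.

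The same motifs were counted on both strands over all 63 matched genes. GGGCGG stood in 38 of 63 genes (60.3%), against 35.4% of all 27025 genes and 32.7% of all 32851 promoters in the table. TATAAA stood in 3 of 63 (4.76%), against 14.3% of genes and 12.4% of promoters. CCAAT stood in 22 (34.9%, against 37.5% of genes) and the interferon-response-like motif in 4 (6.35%, against 3.46% of genes). The channel genes were limited to the 17787 genes of the deposited normalized table, while the 27025 genes of the background were not. Shares over genes of like level and type were not counted, so these contrasts cannot be read as particular to channel genes. No motif contains another. A match is a run of letters and not a bound site.

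By family, the direction below 0 was common. All 7 ether-à-go-go genes (Kcnh) and all 3 Kv4 genes had log2 fold changes below 0. Family medians ran from -0.30 (Kv3) to -0.08 (two-pore). Apart from the 4 genes described above, none of these changes passed the test.

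In the Kv1 family, Kcna6 came closest. It ran from 198 to 227 CPM in SHAM (median 212 CPM) and from 165 to 208 CPM in MM (median 190 CPM), with all 9 MM libraries below the SHAM median. The log2 fold change was -0.17 (SE 0.05, edgeR adjusted p = 0.0576). Kcna2, with 483 to 730 CPM in SHAM and 389 to 634 CPM in MM, had -0.22 (SE 0.10), and Kcna1 had -0.20 (SE 0.11). In both, the lowest MM library lay below every SHAM library and the highest MM library lay inside the SHAM range. In the fit that left out MM5, MM8 and MM9 the log2 fold change was -0.11 for Kcna6, -0.08 for Kcna2 and -0.04 for Kcna1.

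The A-type and delayed rectifier genes gave similar sizes. Kcnd1 ran from 263 to 325 CPM in SHAM and from 206 to 318 CPM in MM, with a log2 fold change of -0.19 (SE 0.07, edgeR adjusted p = 0.135). Kcnd3 had -0.20 (SE 0.08, edgeR adjusted p = 0.180), and their partner Kcnip4 had -0.15 (SE 0.06, edgeR adjusted p = 0.150). In Kcnd1, 6 of 9 MM libraries lay below the lowest SHAM library, and in Kcnd3 and Kcnip4 4 of 9. The delayed rectifier Kcnb2 had -0.25 (SE 0.14). The silent subunit Kcns1, which modifies Kv2 channels, had -0.24 (SE 0.12), and Kcns3 had -0.04 (SE 0.09). The values from the 15 libraries other than MM5, MM8 and MM9 were -0.09 for Kcnd1, -0.12 for Kcnd3, -0.09 for Kcnip4, -0.08 for Kcnb2, -0.08 for Kcns1 and 0.09 for Kcns3.

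The M-current genes Kcnq3 and Kcnq5 did not pass the test and had intervals inside 1.5-fold. Kcnq3 ran from 64.4 to 108 CPM in SHAM and from 37.4 to 103 CPM in MM, with a log2 fold change of -0.19 (95% interval -0.49 to 0.12). Kcnq5 had -0.22 (-0.45 to 0.01). Without MM5, MM8 and MM9 they stood at -0.01 and -0.12. The intervals of Hcn2, Hcn3 and Hcn4 also lay inside 1.5-fold. Hcn2 ran from 159 to 212 CPM in SHAM and from 102 to 221 CPM in MM, with a log2 fold change of -0.19 (-0.43 to 0.05). Hcn3 had -0.10 (-0.22 to 0.03) and Hcn4 -0.06 (-0.23 to 0.12). Leaving out the same 3 libraries, Hcn2 stood at -0.04, Hcn3 at -0.02 and Hcn4 at -0.11.

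Among calcium- and sodium-activated channels, the large-conductance channel Kcnma1 had -0.27 (SE 0.11, edgeR adjusted p = 0.150). It ran from 66.8 to 106 CPM in SHAM and from 48.3 to 94.6 CPM in MM, with 8 of 9 MM libraries below the SHAM median. Kcnn1, a small-conductance channel of the same subfamily as Kcnn4, had -0.11 (SE 0.06). Kcnt2, the relative of Kcnt1, had -0.13 (SE 0.06). Kcnma1 stood at -0.15, Kcnn1 at -0.06 and Kcnt2 at -0.09 without MM5, MM8 and MM9.

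Of the inward rectifiers, Kcnj3 and Kcnj6 encode subunits opened by G proteins downstream of opioid and other receptors. Kcnj3 ran from 32.1 to 44.8 CPM in SHAM and from 21.6 to 39.7 CPM in MM, with all 9 MM libraries below the SHAM median and a log2 fold change of -0.24 (SE 0.10, edgeR adjusted p = 0.177). Kcnj6 ran from 1.155 to 1.43 CPM in SHAM and from 0.763 to 1.53 CPM in MM, with -0.34 (SE 0.13, edgeR adjusted p = 0.141). Kcnj10, a marker of satellite glia, had -0.20 (SE 0.13), and the vascular Kcnj8 had -0.12 (SE 0.33). The 10 satellite glia markers, Kcnj10 among them, had a median log2 fold change of -0.007, with 5 below 0. The median was 0.30 over 10 endothelial markers and -0.16 over 10 pericyte and smooth muscle markers. No marker of these 3 lists passed the test. Kcnj3 stood at -0.09, Kcnj10 at -0.07, Kcnj8 at -0.28 and Kcnj6 at -0.32 without MM5, MM8 and MM9.

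The two-pore channels of sensory neurons had small values that did not pass the test. Kcnk18 had -0.25 (SE 0.11), Kcnk3 had -0.16 (SE 0.12), Kcnk1 had -0.15 (SE 0.10), Kcnk4 had -0.09 (SE 0.10), Kcnk10 had -0.06 (SE 0.12) and Kcnk2 had -0.02 (SE 0.15). All 6 intervals lay inside 1.5-fold. Without MM5, MM8 and MM9, Kcnk18 stood at -0.07, Kcnk1 at -0.01, Kcnk4 at 0.02, Kcnk10 at 0.05, Kcnk2 at -0.03 and Kcnk3 at -0.16. Kcnk5 varied widely in both groups, from 2.65 to 20.1 CPM in SHAM and from 4.05 to 26.4 CPM in MM, and had 0.40 (SE 0.36), or 0.20 without those libraries and 0.09 in limma on the deposited table.

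The common lean below 0 was largest in a few libraries. In MM5 the median of the 84 genes lay at -0.63 relative to the SHAM mean on the log2 CPM scale, in MM9 at -0.36 and in MM8 at -0.28. In the other 6 MM libraries it lay between -0.13 and 0.03, with MM3 alone above 0. In SHAM6 it lay at -0.20, and in the other 8 SHAM libraries between 0.004 and 0.09. Pan-neuron markers had means of -0.83 in MM5, -0.37 in MM9, -0.11 in MM8 and -0.24 in SHAM6. The median of all tested genes stayed within 0.01 of 0 in each library, since the scaling holds it there.

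**Figure D5:**
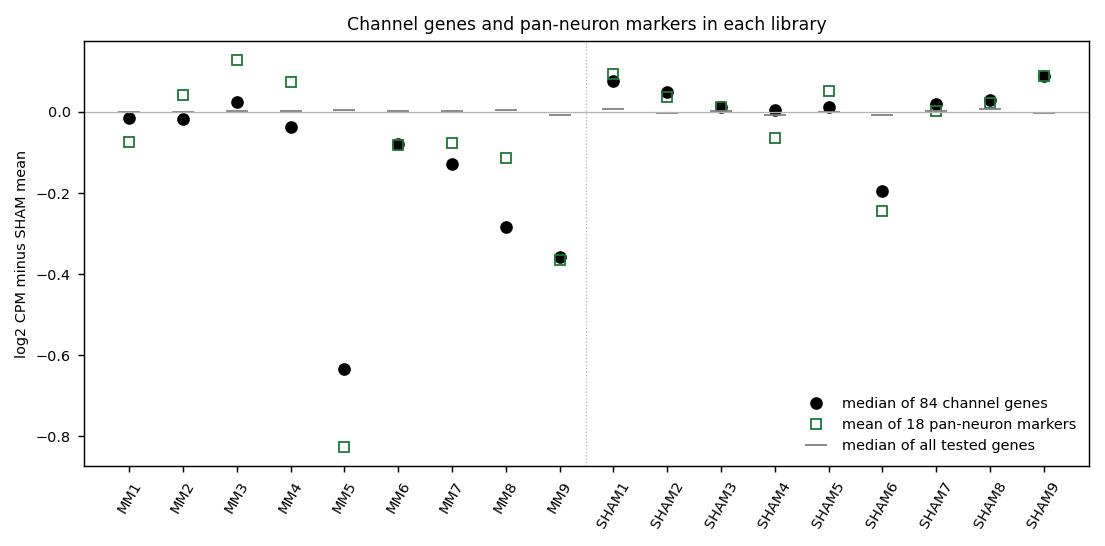
Difference from the SHAM mean (log2 CPM) in each of 18 libraries for the median of 84 channel genes (filled circles), the mean of 18 pan-neuron markers (open squares) and the median of all tested genes (dashes). MM5, MM9, MM8 and SHAM6 have the lowest channel medians (-0.63, -0.36, -0.28 and -0.20), and in MM5, MM9 and SHAM6 the pan-neuron markers lie as low or lower.

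Of the 18 pan-neuron markers, 0 rose and 1 fell (Ncam1), with a median log2 fold change of -0.15, close to the -0.17 of the channel genes. Without MM5, MM8 and MM9 the channel median was -0.06 and 59 of 84 lay below 0, against a median of -0.006 and 52.7% below 0 over all genes, and 0 passed the test in either direction (background 0.331% up and 0.0438% down). At an unadjusted p under 0.05 there were then 4 lower (background 4.0%) and 1 higher (background 5.4%). With libraries scaled to equal pan-neuron markers, the median of all genes moved to 0.16 and that of the channel genes to -0.02, and 46 of 84 lay below 0 against 17.4% of all genes. None passed in that fit either (background 1.65% up and 0.0444% down), with 4 higher (background 19.9%) and 2 lower (background 1.13%) at an unadjusted p under 0.05. Without SHAM7 and SHAM8 the median was -0.16 and none passed (background 0.182% up and 0.0376% down), with 4 higher (background 11.9%) and 9 lower (background 5.52%) unadjusted. The part of neuronal RNA content in these values was not tested.

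Genes whose products work with these channels had values of similar size. The list held 25 auxiliary subunits, scaffolds and regulators, of which 23 were tested. In edgeR 0 rose and 0 fell (0 higher and 5 lower at an unadjusted p under 0.05), with a median log2 fold change of -0.15. Ank3, the ankyrin that anchors Kcnq3 and other channels at the axon initial segment, had -0.25 (SE 0.09, edgeR adjusted p = 0.122). Dpp6, a Kv4 partner, had -0.19 (SE 0.09) and Cntnap2, which gathers Kv1 channels beside the node, had -0.23 (SE 0.15). Rest, a repressor of neuronal genes that include potassium channels, ran from 4.08 to 6.73 CPM in SHAM and from 4.77 to 10.6 CPM in MM, with 0.25 (SE 0.15, edgeR adjusted p = 0.327).

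A pair of channel genes was highest where skeletal muscle RNA was highest, and both were picked after their values were seen. Kcna7, a Kv1 subunit of muscle, was too low to test and reached 10.9 CPM in SHAM8, 2.51 CPM in MM6 and 2.45 CPM in SHAM7, with at most 0.602 CPM elsewhere. Kcnj11, the pore of ATP-sensitive channels in muscle and neurons, was 38.4 CPM in SHAM8 and 15.9 CPM in SHAM7, and between 5.17 and 14 CPM in the other 16 libraries. Its log2 fold change was -0.62 (SE 0.28, edgeR adjusted p = 0.200). Without SHAM7 and SHAM8 it was -0.21 (edgeR adjusted p = 0.581), and without MM5, MM8 and MM9 it was -0.38. Of the 10 skeletal muscle markers 9 were tested and 0 rose or fell in edgeR (0 higher and 1 lower at an unadjusted p under 0.05), and their sum ran from 3.25 to 21982 CPM in SHAM and from 18 to 2205 CPM in MM. Abcc9, a partner of Kcnj8 and Kcnj11 in muscle, was also highest in SHAM8, at 52.2 CPM. Abcc8, of the same partner list, reached at most 16.6 CPM in any SHAM library.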

How the data were processed

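RNA of 18 libraries was sequenced on a DNBSEQ platform, per the labels. Per the submitters' processing notes the authors used Salmon 1.5.2, DESeq2 and the build GRCm39; index and options are not given in the sources used here. The deposited files hold per transcript an estimated count (unscaled), a TPM and an effective length, and a deposited table gives each gene's normalized signal in all samples, which was used to choose the genes and for 1 alternative.

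Gene counts were rounded sums of these estimated counts, with transcripts linked to genes by GENCODE M21 (GRCm38); 3620 of 137562 transcripts had no gene and held 0.85% to 1.339% of reads. For 71 channel genes with at least 50 reads, 76.4% of deposited values lay within 5% of the scaled sums. The 15774 genes kept by filterByExpr were TMM-scaled and fitted in edgeR 4.0.16 (R 4.3.3; quasi-likelihood test, robust, no term but group) with Benjamini-Hochberg adjustment; adjusted p under 0.05 counted as passing. Log2 CPM used a prior count of 2. The scripts were tested on simulated data. DESeq2 1.42.0 and limma 3.58.1 served as alternatives, the latter on log2 of the deposited value plus 1. Read number limits low values: 3 counts make 0.14 to 0.16 CPM.

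The channel genes, families, marker and partner lists and tests were chosen with earlier results of these data known. Named were genes past the threshold, the 15 with the highest SHAM TPM, the 6 with the lowest p in each direction and a list of channels studied in sensory neurons; Kcnd2, Kcnh5, Kcnip1, Kcnip2, Kcnj4, Kcnj11, Kcna7 and the partner genes other than those past the threshold were named after their values were seen. Protein sequences were not analysed here. Some genes that this rule names are not reported here, and they are left out of the plots by gene and of the search for libraries that stand apart.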

Additional observations from a re-analysis of the deposited data

Results flagged for a closer look

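In 11 of 158 pairs of a tested channel gene and a group of 9 libraries, 1 library stood apart: its gap to the nearest other library, as a share of the range of the group, exceeded Dixon's 95% critical value. Chance alone flags about 1 in 20 groups, and these genes share libraries, so the 11 are not independent. SHAM6 was the lowest library in 7 of them. Kcnh5, an ether-à-go-go channel, was at 6.66 CPM there against a SHAM median of 11.8 CPM, a gap of 0.577 of the range. Kcns3 (0.574) came next, then Kcnh2 (0.548), Kcnq3 (0.518), Kcnj3 (0.507), Kcnb2 (0.503) and Kcnt1 (0.494). In the same library the mean of the pan-neuron markers lay at -0.24 on the log2 scale, the lowest in SHAM. The sums of red blood cell markers (2998 CPM), macrophage markers (283 CPM) and Schwann cell markers (15230 CPM) were the highest in SHAM. MM5 was the lowest MM library for Kcnq3 (37.4 CPM against a median of 84.5 CPM, gap 0.624) and Kcnb2 (107.9 CPM against 218 CPM, gap 0.516). SHAM8 was the highest SHAM library for Kcnj11 (gap 0.555) and the lowest for Kcnj4, an inward rectifier (4.99 CPM against 6.57 CPM, gap 0.587). The part of cell composition in these gaps was not tested.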

How the results depend on the processing

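The 48 named channel genes gave 1391 values under the alternatives, of which 0 reversed a call, 64 lost one and 7 gained one (Kcna6 and Kcnk6, under DESeq2's Wald test or without 1 library). With DESeq2 size factors 2 of 84 channel genes rose and 2 fell, against 400 and 51 of all 15774 genes. These counts were also 2 and 2 of 84 with library totals, against 472 and 19 of 15774 genes. With a minimum of 1 CPM they were 2 and 2 of 83, against 512 and 56 of 14841 genes. DESeq2's Wald test gave 3 and 3 of 87, against 1136 and 252 of the 30729 genes it was run on. They were 0 and 1 with no low-count filter, 1 and 0 with length-scaled TPM, 0 and 0 with limma on the deposited table (3 higher and 21 lower of 87 at an unadjusted p under 0.05, against 2026 and 1452 of all 17787 genes), 0 and 0 with scaling to pan-neuron markers, 0 and 0 without MM5, MM8 and MM9, and 0 and 0 without SHAM7 and SHAM8 (4 higher and 9 lower of 84 unadjusted, against 1895 and 881 of all 15966 genes). Leaving out 1 library gave 0 to 2 that rose and 0 to 3 that fell. None rose without MM5, MM8, MM9 or any SHAM library other than SHAM6. Over all genes, 433 rose and 38 fell. These became 1136 and 252 in DESeq2's Wald test, which was run on 30729 genes and not the 15774 of the main fit. They were 193 and 55 in limma and 260 and 7 with scaling to pan-neuron markers. Without MM5, MM8 and MM9 they were 53 and 7, and without SHAM7 and SHAM8 29 and 6. With library totals 19 fell, with no filter 20 and with length-scaled TPM 76. Leaving out 1 library gave 75 to 891 that rose and 9 to 139 that fell. The count of channel genes with intervals inside 1.5-fold ran from 56 to 70. The labels name no pairing by replicate number. Correlations of same-numbered libraries ran from -0.32 to 0.263, and 2 of 9 numbers correlated best with their own. Such correlations cannot show whether samples were paired. With the replicate block 0 channel genes rose and 0 fell (3 higher and 15 lower of 84 at an unadjusted p under 0.05, against 1600 and 951 of all 15774 genes), and over all genes 7 rose and 1 fell. The cause of these shifts was not tested. The planned search of protein sequences was not run.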
